A study of Rattus norvegicus with 10 samples.

Results

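Adipose tissue lies beneath the skin and between muscles and their fibres, and its main cell, the adipocyte, stores triglyceride in a large droplet and releases hormones. The results concern 8 genes by which adipocytes are commonly recognised, in subcutaneous tissue labelled as muscle. It came from female Wistar rats made arthritic with collagen, which serves as a model for rheumatoid arthritis (RA). The members were the rows of the deposited expression table that carry the symbols Adipoq, Fabp4, Plin1, Lep, Cfd, Cidec, Retn or Pck1, which gave 10 transcripts of 17221, or 8 of 16497 gene symbols. All 8 symbols were found, and the values of all 10 libraries were used.

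Every animal had been immunised with bovine type II collagen in adjuvant, the untreated ones included, so that no group stands for healthy tissue. The 10 libraries form 5 groups of 2 libraries each, with no age given. RA_0 was taken before therapy. AP_1h and AP_34d were taken 1 hour and 34 days into acupuncture, which the study calls mechanical stimulation and in which a short needle was inserted and turned at points of the lower back and the leg. PLA_1h and PLA_34d were taken at the same times under placebo, an injection of saline into the peritoneal cavity, so that placebo differs from acupuncture in the place of the injury as well as in its kind. Per the study's methods the specimens were subcutaneous tissue that included muscle, and how much fat each piece held was not recorded in the sources used here. The labels call the 2 libraries of a group replicates, and p-values measure only the spread between these samples.

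Adiponectin (Adipoq), leptin (Lep), resistin (Retn) and adipsin or complement factor D (Cfd) are secreted by adipocytes. Perilipin 1 (Plin1) and Cidec coat the lipid droplet, where Plin1 gates the access of lipases and Cidec promotes the fusion of droplets into the single large droplet of white fat. Fabp4 carries fatty acids within adipocytes and is also made by capillary endothelium and macrophages. Pck1, the cytosolic phosphoenolpyruvate carboxykinase, supplies glycerol for triglyceride in adipocytes and is a gluconeogenic enzyme in liver and kidney.

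Values are CPM, read counts that the authors scaled to a common library size with edgeR's TMM factors. The libraries held 5371687 to 8899521 counted reads, so that 1 CPM stood for 4.19 to 10.1 reads and a gene at 0 reads could lie at up to 0.297 to 0.716 CPM (3 reads, counting error only). Skeletal muscle genes were high everywhere: Acta1, the actin of the sarcomere, ran from 30415 to 134964 CPM, and 10 muscle genes took 17.3% to 28.8% of the reads of a library. PLA_34d replicate 1 held leukocyte transcripts at a level seen in no other library, with the T cell marker Cd3e at 36.3 CPM against at most 4.22 CPM elsewhere. RA_0 replicate 1 was the shallowest library. Both of these libraries stand at an extreme of the adipocyte genes, and the main changes between groups that rest on them are given with and without them. The correlations of deviations from group means and the ranking of transcripts by likeness to Adipoq were made with them only.

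Adipoq (NM_144744, rn4 chromosome 11, 79907784 to 79921169, minus strand) was detected in every library. Before therapy it stood at 1.67 CPM in RA_0 replicate 1 and at 21.1 CPM in replicate 2. At 1 hour it stood at 3.89 and 1.82 CPM under acupuncture and at 21.1 and 12.6 CPM under placebo. At 34 days it stood at 18.2 and 13.3 CPM under acupuncture and at 73.0 and 20.04 CPM under placebo. The 3 low libraries were both of AP_1h and 1 of RA_0, 6 libraries lay between 12.6 and 21.1 CPM, and PLA_34d replicate 1 stood alone above them. The group means were 2.86 ± 1.47 CPM in AP_1h, 11.4 ± 13.7 in RA_0, 15.7 ± 3.44 in AP_34d, 16.9 ± 5.996 in PLA_1h and 46.5 ± 37.5 in PLA_34d (SD, n = 2). No neighbours in this order were apart beyond their spread, and RA_0 reached from below AP_1h to above AP_34d. The smallest two-sided p of an exact permutation test between 2 groups of 2 libraries is 0.333, so none is given for single genes. In bulk tissue of this kind, fewer adipocytes and less RNA per adipocyte cannot be told apart.

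Plin1 (NM_013094, chromosome 1, 135497431 to 135509926, minus strand) had no read in RA_0 replicate 1 and stood at 8.61 CPM in replicate 2. It stood at 2.05 and 1.119 CPM in AP_1h, at 7.04 and 2.11 CPM in PLA_1h, at 1.56 and 2.84 CPM in AP_34d and at 16.4 and 6.25 CPM in PLA_34d. Both acupuncture groups lay below the placebo group of the same time, with 2.05 against 2.11 CPM as the nearest values at 1 hour, and the highest value was again that of PLA_34d replicate 1. The count of 0 in RA_0 replicate 1 allows up to 0.716 CPM, which is still below every other library.

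Lep (NM_013076, chromosome 4, 55943830 to 55948670, plus strand) rested on 151 reads in all. No read fell on it in RA_0 replicate 1, against 2.08 CPM in replicate 2. It stood at 0.108 and 0.140 CPM in AP_1h, which is 1 read in each library, at 1.09 and 1.75 CPM in PLA_1h, at 0.977 and 0.598 CPM in AP_34d and at 10.3 and 1.85 CPM in PLA_34d. Of the 105 reads of PLA_34d, most came from replicate 1. Leptin too was lower in both acupuncture libraries than in both placebo libraries at each time.

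Pck1 (NM_198780, chromosome 3, 164012410 to 164018359, plus strand) had no read in RA_0 replicate 1 and reached its highest value, 8.91 CPM, in RA_0 replicate 2. It stood at 2.27 and 0.980 CPM in AP_1h, at 4.96 and 0.877 CPM in PLA_1h, at 4.30 and 1.94 CPM in AP_34d and at 5.61 and 7.11 CPM in PLA_34d. The groups overlapped at 1 hour, and at 34 days both acupuncture libraries lay below both placebo libraries. Of 7 liver and kidney markers in the table, Ttr, Umod and Ahsg had no read in any library, Alb, Serpina1 and Slc34a1 reached at most 0.897, 0.526 and 0.112 CPM, and Tf, the transferrin that other tissues make as well, ran from 14.97 to 43.0 CPM. A list of 7 other genes covered glycerol and glucose synthesis and the handling of pyruvate. In it Fbp2, the fructose bisphosphatase of muscle, ran from 21.2 to 244 CPM. Pdk1, a kinase of pyruvate dehydrogenase, ran from 11.46 to 42.2 CPM, and Pck2, the mitochondrial form of the Pck1 enzyme, from 2.66 to 9.21 CPM. Of this list 5 of 5 tested were lower under acupuncture at 34 days (3 of 5 without PLA_34d replicate 1, and 0 called by limma). The part of other cell types in the level of Pck1 was not tested.

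Adipoq, Plin1 and Lep had lower values in both acupuncture libraries than in both placebo libraries at each time. Of all tested transcripts 16.7% did so at 1 hour, 15% at 34 days and 3.48% at both times. For Plin1 the order at 1 hour is a near tie (2.05 against 2.11 CPM). None of these 3 members was called in any test made here. Lep reached the level needed for the test through its placebo values alone, so its order supports no direction. The sequences before the start sites of these 3 members are shown as a description. They are the 250 bases upstream of each gene's start in RefSeq (GRCr8, another build than the rn4 of the reads), from 5′ to 3′ on the gene's strand. Capitals mark the CCAAT box on either strand, which reads ATTGG where it lies on the other one, and, in Lep, the palindrome TTGCGCAA, which is the core to which C/EBP factors, the regulators of fat cell differentiation, are known to bind.
Adipoq (chr11:91240170-91240419, minus strand): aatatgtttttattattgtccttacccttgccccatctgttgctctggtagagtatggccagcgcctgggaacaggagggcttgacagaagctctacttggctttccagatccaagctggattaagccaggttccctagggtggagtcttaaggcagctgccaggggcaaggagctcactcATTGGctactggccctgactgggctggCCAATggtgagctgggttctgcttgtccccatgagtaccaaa
Plin1 (chr1:143086149-143086398, minus strand): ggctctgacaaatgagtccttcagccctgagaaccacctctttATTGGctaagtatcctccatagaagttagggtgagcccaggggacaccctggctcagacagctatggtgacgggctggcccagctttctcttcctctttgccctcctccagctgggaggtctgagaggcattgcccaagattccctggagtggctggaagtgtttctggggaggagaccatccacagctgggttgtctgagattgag
Lep (chr4:58626288-58626537, plus strand): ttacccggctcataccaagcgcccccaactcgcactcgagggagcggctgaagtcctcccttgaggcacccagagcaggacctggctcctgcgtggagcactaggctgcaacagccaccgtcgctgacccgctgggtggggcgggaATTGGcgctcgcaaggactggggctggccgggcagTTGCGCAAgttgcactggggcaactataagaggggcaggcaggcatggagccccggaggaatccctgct

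The CCAAT box, the palindrome TTGCGCAA, the nuclear receptor half-site AGGTCA, the TATA box as TATAAA, plus the E-box CACGTG, were searched on both strands of the 7 members with an entry, and no match overlapped that of another motif. CCAAT began 69 and 42 bases before the start of Adipoq (positions -69 and -42), at -104 in Lep and at -207 in Plin1, and 34.0% of all 33469 promoters of this length hold it. TTGCGCAA lay at -69 in Lep, and 0.140% of promoters hold it. AGGTCA lay at -144 in Pck1 and at -169 and -7 in Retn, against 14.1% of promoters. TATAAA was in none of the 7 windows and is in 12.9% of all promoters. The same holds for CACGTG, at 5.59%. Cfd and Cidec held none of the 5 motifs. These matches are letters in a window, and none was tested as a binding site here.

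Cfd (NM_001077642, chromosome 7, 11325538 to 11327261, minus strand) varied less. It stood at 8.11 and 38.6 CPM in RA_0, at 34.9 and 8.40 CPM in AP_1h, at 26.2 and 16.1 CPM in PLA_1h, at 44.5 and 19.0 CPM in AP_34d and at 54.2 and 26.7 CPM in PLA_34d. The groups overlapped in each comparison made here, and the replicates of a group differed by 1.62 to 4.76 times. Its lowest and highest values lay in the same libraries as those of Adipoq.

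Fabp4 (NM_053365, chromosome 2, 93536133 to 93540734, plus strand) had another order of libraries than the members above. It stood at 148 and 178 CPM in RA_0, at 209 and 208 CPM in AP_1h, at 175 and 176 CPM in PLA_1h, at 318 and 115 CPM in AP_34d and at 138 and 283 CPM in PLA_34d. Its highest value was 2.77 times its lowest, against 43.7 times for Adipoq. At 1 hour both acupuncture libraries lay above both placebo libraries and above both RA_0 libraries.

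Retn and Cidec were too low for the test, which asked for at least 1 CPM in both libraries of a group. Retn (NM_144741, chromosome 12, 2499630 to 2501370, minus strand) had no read in RA_0 replicate 1, 0.891 CPM in replicate 2, 1.62 and 0.560 CPM in AP_1h, 1.59 and 0.877 CPM in PLA_1h, 0.586 and 0.896 CPM in AP_34d and 3.14 and 0.426 CPM in PLA_34d. It rested on 86 reads, and its groups overlapped in every comparison of treatment. Cidec has 3 annotated transcripts (NM_001024333, NM_001244797 and NM_001244798, chromosome 4, 149307981 to 149321994, minus strand) that overlap each other. The counting dropped reads that fit more than 1 transcript, and only 3 reads remained, all in AP_1h replicate 1, so the level of this gene is not known from these data.

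**Figure D1:**
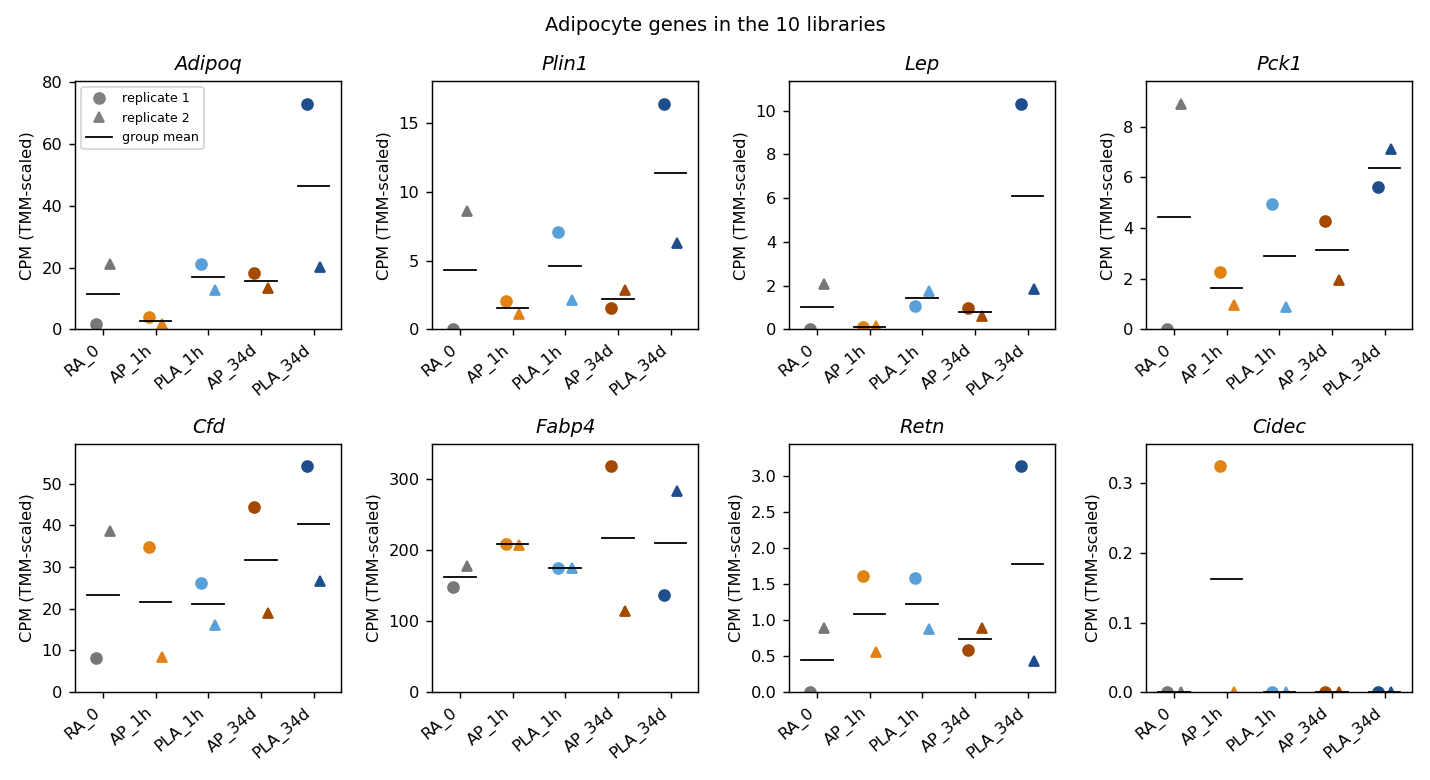
CPM (TMM-scaled, linear axis from 0) of each of the 8 genes in the 5 groups, with circles for replicate 1, triangles for replicate 2 and a bar for the group mean. Adipoq, Plin1 and Lep lie lower in both acupuncture libraries than in both placebo libraries at each time, as do 3.48% of all tested transcripts. For Plin1 this is a near tie at 1 hour. PLA_34d replicate 1 is the highest library for Adipoq (73.0 CPM), Plin1 (16.4 CPM) and Lep (10.3 CPM), and Fabp4 orders the libraries in another way.

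The comparison of acupuncture with placebo asks how the 2 arms differed at the same time of the experiment. Handling was not matched: per the study, needle sessions were held every other day and saline was injected weekly. The comparison therefore does not single out the needle. At 1 hour the mean of Adipoq was 5.91 times and that of Plin1 2.88 times as high under placebo as under acupuncture. Lep passed the filter on low values through the placebo groups alone, so that its p-values and its place in counts are given as a description and support no direction. The log2 changes, of CPM + 1 and as acupuncture minus placebo, were -2.23 ± 0.87 for Adipoq and -1.09 ± 0.67 for Lep (SE, limma adjusted p 1.00 for both, unadjusted p 0.0287 and 0.135). limma called 0 of the 6 tested members (adjusted p below 0.05). At an unadjusted p under 0.05 there was 1, Adipoq, where 4.04% of all tested transcripts lay, and limma-voom, edgeR and DESeq2 on the recovered reads called 0 as well. Over all 10259 tested transcripts limma called 0% in this comparison. Adipoq alone among the members met the study's own rule (an unadjusted p under 0.05 with a mean of 1 CPM or more that differs at least 2-fold), which 1.65% of transcripts met in the lower direction. Here and below, this rule was read on the limma fit of log2(CPM + 1), where the study applied it to limma-voom. The libraries did not overlap at Adipoq, Plin1 and Lep (lower under acupuncture, where 16.7% of all tested transcripts did the same) and at Fabp4 (higher, 13.9%). The median change of the 5 tested members other than Lep was -0.39, with 4 lower, beside 0.01 over all tested transcripts. It was -0.03 without AP_1h replicate 2 and -1.20 without AP_1h replicate 1. Markers of other cell types differed in the same comparison: 6 of 6 tested leukocyte genes (median log2 change 0.95) and 8 of 8 fibroblast genes (0.47) were higher under acupuncture, with 0 called by limma. Without AP_1h replicate 1 these were 3 of 6 (0.03) and 7 of 8 (0.14). Col3a1, a fibrillar collagen, met the study's rule at 1178 and 746 CPM against 388 and 313 CPM. The part of these cell types in the difference of Adipoq was not tested.

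At 34 days the placebo mean was 2.96 times the acupuncture mean at Adipoq, 5.14 times at Plin1 and 7.73 times at Lep. The log2 changes were -1.25 ± 0.87 for Adipoq (limma adjusted p 0.890), -1.84 ± 0.91 for Plin1 (0.856) and -1.68 ± 0.67 for Lep (0.856, unadjusted p 0.0320). limma called 0 of 6 members and 0% of all tested transcripts. 1 member, Lep, and 5.47% of all tested transcripts had an unadjusted p under 0.05, and limma-voom, edgeR and DESeq2 called 0 members. The libraries did not overlap at Adipoq, Plin1, Lep and Pck1, each lower under acupuncture, as at 15% of all tested transcripts. Much of this difference lay in PLA_34d replicate 1. Without that library the changes were -0.35 for Adipoq, -1.21 for Plin1 and -0.68 for Lep, and without PLA_34d replicate 2 they were -2.16, -2.47 and -2.67. The median change of the 5 tested members other than Lep was -0.89, with 5 lower, beside 0.00 over all tested transcripts, and it was -0.56 with 4 lower without PLA_34d replicate 1. The part of the leukocyte-rich composition of PLA_34d replicate 1 in this difference was not tested.

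The comparisons at 1 hour and at 34 days share no library. Adipoq and Plin1 were lower under acupuncture without overlap at both times, 2 of the 5 tested members other than Lep, and 3.48% of all tested transcripts did so. At 1 hour Plin1 was apart only by 2.05 CPM (19 reads) in AP_1h replicate 1 against 2.11 CPM (12 reads) in PLA_1h replicate 2. Their 95% counting limits, 1.24 to 3.21 and 1.09 to 3.68 CPM, overlap, so its place in this count rests on a near tie. Lep was also lower without overlap at both times but does not count here, since it was tested through its placebo values. These 3 genes varied together from library to library, so they do not count as 3 separate observations. Averaged over both times, the log2 change was -1.74 ± 0.62 for Adipoq (limma adjusted p 0.751, unadjusted p 0.0181), -1.39 ± 0.48 for Lep (0.727, unadjusted p 0.0155) and -1.41 ± 0.64 for Plin1 (0.881, unadjusted p 0.0533). Adipoq met the study's rule, as did 0.868% of transcripts in the lower direction. limma called 0 of 6 members and 0% of all transcripts, and Adipoq and Lep beside 5.72% of all transcripts had an unadjusted p under 0.05. Without PLA_34d replicate 1 it was 0 of 6 members, the smallest adjusted p was 0.970 in limma, and the changes were -1.29 for Adipoq, -1.09 for Plin1 and -0.89 for Lep. Neither limma-voom nor edgeR called a member, and DESeq2 came nearest with an adjusted p of 0.0688 for Adipoq. The difference between the times, tested as an interaction, was called at 0 of 6 members by limma, limma-voom, edgeR and DESeq2, while limma called 0% of all transcripts and gave 0 members beside 4.05% of all transcripts an unadjusted p under 0.05.

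**Figure D2:**
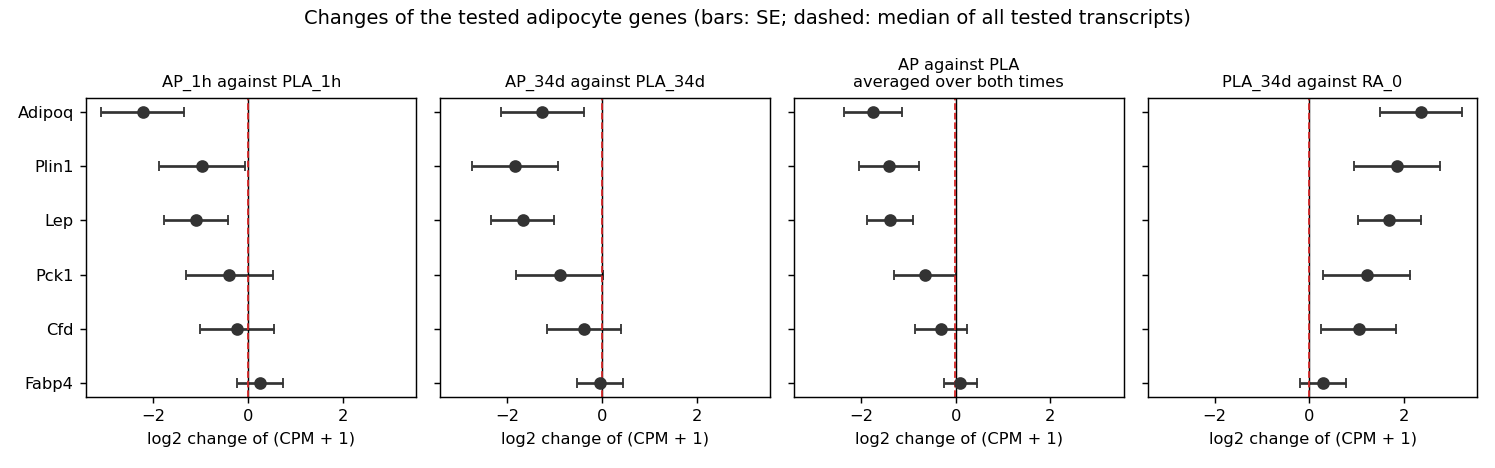
Log2 change of (CPM + 1) of the 6 tested genes in 4 comparisons, with points for the limma estimate, bars for its SE, a solid line at 0 and a dashed line at the median of all tested transcripts. Adipoq lies at -2.23 at 1 hour and at -1.25 at 34 days under acupuncture against placebo, Fabp4 lies between -0.04 and 0.28, and against RA_0 the placebo group at 34 days lies to the right at all 6 genes.

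The comparisons with RA_0 ask what changed from the state before therapy, and all of them share the 2 RA_0 libraries, which were 12.6 times apart at Adipoq, where the other groups had 1.37 to 3.64 times between replicates. At Cfd they were 4.76 times apart, and Plin1, Lep, Pck1 and Retn had no read in replicate 1. For PLA_34d the log2 changes were 2.36 ± 0.87 for Adipoq, 1.86 ± 0.91 for Plin1, 1.69 ± 0.67 for Lep, 1.22 ± 0.92 for Pck1 and 1.04 ± 0.78 for Cfd (SE, limma adjusted p 0.914 for each). limma called 0 of 6 members and 0% of all transcripts. Adipoq (0.0219) and Lep (0.0305) had an unadjusted p under 0.05, as did 3.2% of all transcripts, and limma-voom, edgeR and DESeq2 called 0 members. Adipoq met the study's rule, as did 1.98% of transcripts in the higher direction. The change of Adipoq was 0.84 without RA_0 replicate 1 and 3.89 without RA_0 replicate 2, so its size depends on single libraries in both directions. No member was apart from RA_0 in this comparison, in which 16.8% of transcripts were higher without overlap. With both RA_0 replicate 1 and PLA_34d replicate 1 left out, a choice made after the values were seen, the changes were -0.070 for Adipoq, -0.41 for Plin1, -0.11 for Lep, -0.29 for Pck1 and -0.51 for Cfd.

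In the other comparisons with RA_0, the log2 change of Adipoq was -1.05 ± 0.87 in AP_1h (limma adjusted p 0.773), 1.18 ± 0.87 in PLA_1h (1.00) and 1.11 ± 0.87 in AP_34d (0.967), and its direction turned in each of them when 1 RA_0 library was left out. Without RA_0 replicate 2 it was 0.48 in AP_1h, and without RA_0 replicate 1 it was -0.35 in PLA_1h and -0.42 in AP_34d. limma called 0 of 6 members in each, while it called 0.0292% of all transcripts in AP_1h and 0% in PLA_1h and AP_34d. An unadjusted p under 0.05 was found at 0 of 6 members in each, beside 8.89%, 2.59% and 4.77% of all transcripts in this order. limma-voom, edgeR and DESeq2 called 0 members. Fabp4 was the only member whose libraries did not overlap with RA_0, being higher in AP_1h, as were 20.6% of all tested transcripts.

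Over the 10 libraries, Lep, Plin1 and Pck1 varied with Adipoq by both measures of correlation used, Cfd passed the test by Pearson's r alone, and Retn and Fabp4 passed it by neither. On the log2(CPM + 1) scale Pearson's r with Adipoq was 0.897 for Lep (permutation test over 100000 resamples, two-sided, adjusted p 0.00319 over 11 relations, Spearman's rho 0.855 with adjusted p 0.0137). It was 0.877 for Plin1 (permutation adjusted p 0.00627, rho 0.915 with adjusted p 0.00561). For Pck1 it was 0.780 (permutation adjusted p 0.0237, rho 0.842 with adjusted p 0.0137) and for Cfd 0.792 (permutation adjusted p 0.0237, rho 0.733 with adjusted p 0.0560). Retn gave 0.632 (permutation adjusted p 0.104, rho 0.539 with adjusted p 0.209) and Fabp4 gave -0.0464 (permutation adjusted p 0.907, rho -0.115 with adjusted p 0.835). The unadjusted p were 0.000290 for Lep, 0.00114 for Plin1, 0.00862 for Pck1, 0.00777 for Cfd, 0.0474 for Retn and 0.898 for Fabp4 by permutation test. Cidec, with 3 reads, was left out.

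The relation did not hold equally in all libraries. Without AP_1h replicate 2 and RA_0 replicate 1, the 2 libraries farthest from the median of Adipoq, r was 0.910 for Lep and 0.790 for Plin1, but 0.542 for Pck1, 0.434 for Cfd, 0.372 for Retn and -0.213 for Fabp4, so that the relations of Pck1 and Cfd rest in part on those libraries. Within the 6 libraries between 10 and 30 CPM of Adipoq, a range chosen after the values were seen, r was 0.946 for Pck1, 0.746 for Cfd, 0.723 for Plin1, 0.485 for Fabp4, 0.343 for Lep and 0.0621 for Retn. The range of Adipoq is narrow there and Lep had only 4 to 14 reads, so this r does not tell on which libraries the relation of Lep rests. The deviations from the group means, which leave out any difference between groups, gave r of 0.934 for Plin1, 0.868 for Cfd, 0.859 for Lep, 0.854 for Retn, 0.806 for Pck1 and -0.0664 for Fabp4. With 2 libraries a group, the deviations mirror each other, so each of these r rests on 1 difference per group. At Adipoq the replicates were 12.6 times apart in RA_0 and 3.64 times in PLA_34d, against 1.37 to 2.14 times elsewhere. These r therefore weigh RA_0 and PLA_34d most, and they were not computed without them. The replicate with more Adipoq was also the replicate with more Cfd in 5 of 5 groups, with more Plin1, Retn and Pck1 in 4 of 5 groups, and with more Lep and Fabp4 in 3 of 5 groups.

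**Figure D3:**
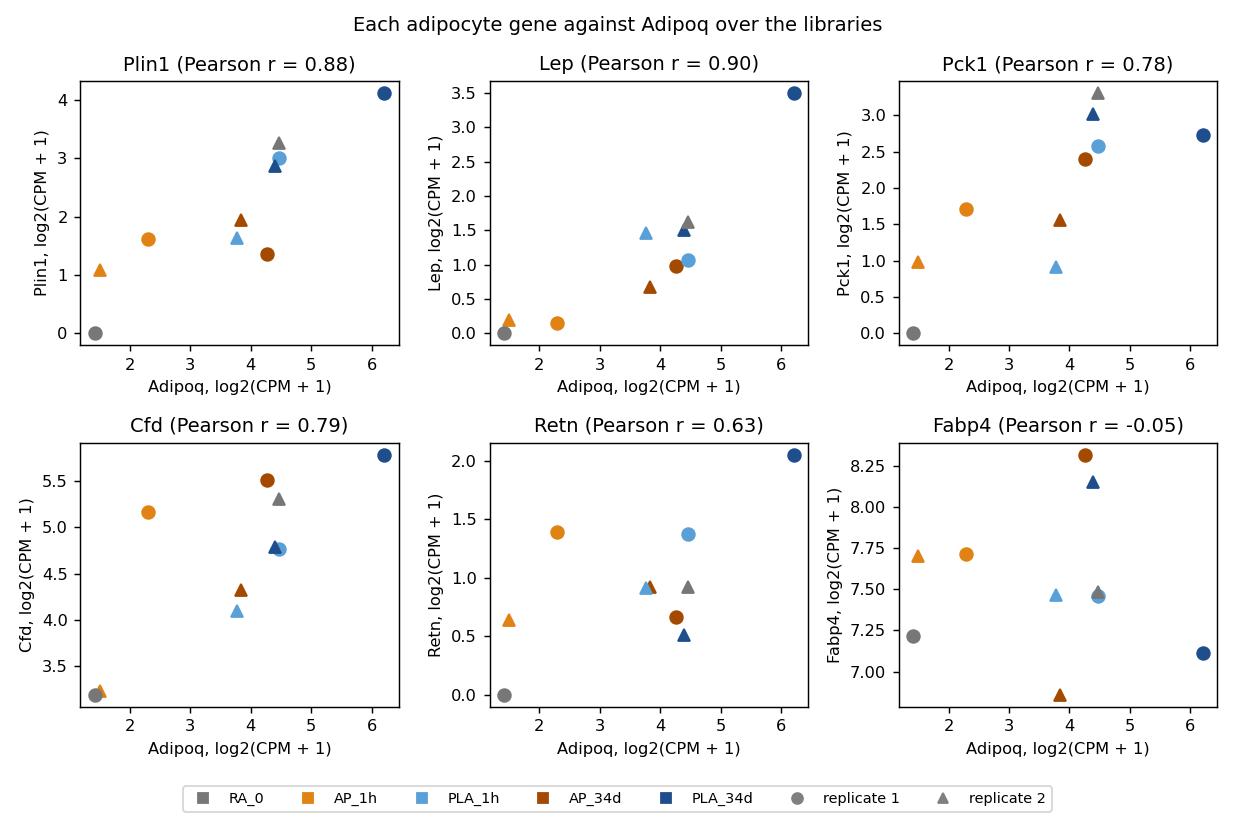
Log2(CPM + 1) of 6 genes against that of Adipoq, with 1 point per library, coloured by group, circles for replicate 1 and triangles for replicate 2. Lep (r = 0.897) and Plin1 (r = 0.877) climb with Adipoq over the 10 libraries, PLA_34d replicate 1 is the point at the far right, and Fabp4 (r = -0.0464) shows no slope.

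Other transcripts were ranked by their r with Adipoq over the same 10 libraries, as a description with no test, since all points share depth and scaling. The median r over 10258 transcripts was 0.06, and 125 of them (1.22%) exceeded 0.8. Lep stood at rank 16, Plin1 at 29, Cfd at 134, Pck1 at 162 and Fabp4 at 5842. The 10 transcripts outside the members with the highest r were Sptbn1 (0.968), Rbp4 (0.946), Snrk (0.942), Trim25 (0.939), RGD1305680 (0.938, today Bicral), Tusc5 (0.936, today Trarg1), Mfhas1 (0.930), Chd8 (0.928), Cdo1 (0.922) and Kirrel (0.922, today Kirrel1). Rbp4, the retinol carrier of plasma, and Trarg1, which takes part in the traffic of the glucose transporter GLUT4, are both known from adipocytes. Rbp4 ran from 0.420 CPM in AP_1h replicate 2 to 13.1 CPM in PLA_34d replicate 1. Tusc5 ran from 1.91 CPM in RA_0 replicate 1 to 21.6 CPM in PLA_34d replicate 1. Sptbn1, a spectrin of the membrane skeleton found in many cells, ran only from 138 to 301 CPM.

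**Figure D4:**
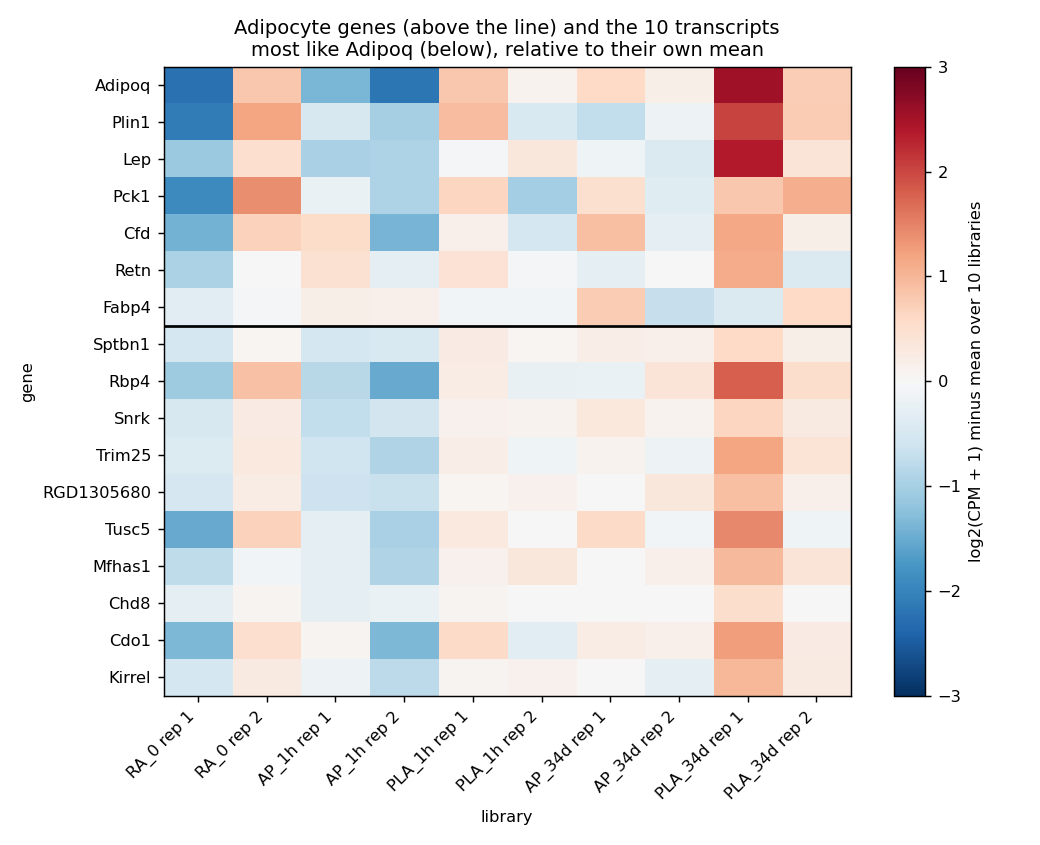
Log2(CPM + 1) of 7 adipocyte genes (above the line) and of the 10 transcripts most like Adipoq (below it) in each library, as the difference from the gene's own mean over the 10 libraries, with red for higher and blue for lower. RA_0 replicate 1 and AP_1h replicate 2 are blue and PLA_34d replicate 1 is red from Adipoq to Retn and in all 10 transcripts below the line, while Fabp4 does not follow this order.

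Of 179 other genes in lists of the lipid pathway and of cell types, 154 were in the table and 113 were tested. limma, limma-voom and edgeR called 0 of them in any of the 8 comparisons. At an unadjusted p under 0.05 in limma there were 4 to 17 of the 113. The 17 were in AP_1h against RA_0, where 8.89% of all tested transcripts lay. The counts of 4 were in PLA_1h and PLA_34d against RA_0, where 2.59% and 3.2% lay. DESeq2 called 6 in AP_1h against RA_0 (Myh1, Myh2, Mb, Thrsp, Gpam and Car3), 2 in each of AP_1h against PLA_1h (Myh1 and Thrsp), AP_34d against RA_0, AP_34d against PLA_34d and the average of acupuncture against placebo (G0s2 and Pdk4 in these 3), and 1 in the interaction (Myh1). Over all transcripts DESeq2 called 1.62%, 0.388%, 0.349%, 0.848%, 0.624% and 0.214% in these 6 comparisons. G0s2 and Pdk4 went opposite ways: in the limma fit of AP_34d against PLA_34d their log2 changes were -2.58 and 2.98. Among the lipid droplet and lipolysis genes, 11 of 14 were tested. Pnpla2, the lipase that starts the breakdown of triglyceride, stood at 1893 CPM in AP_34d replicate 1 and at 128 to 453 CPM in the other libraries. Lipe, the hormone-sensitive lipase that follows it, stood at 150 CPM in the same library and at 29.95 to 58.3 CPM elsewhere. Plin2, the perilipin of small droplets in many tissues, ran from 20.04 to 66.2 CPM. Muscle fibres use these genes as well. At 34 days 8 of the 11 were higher under acupuncture and 3 lower, with a median log2 change of 0.56, which rests on AP_34d replicate 1: the list summed to 2272 CPM there and to 394 CPM in replicate 2, against 363 and 587 CPM in PLA_34d, and without that library 4 of 11 were higher with a median of -0.11. G0s2, the inhibitor of Pnpla2, met the study's rule at 34 days, at 4.88 and 4.18 CPM under acupuncture against 34.9 and 29.3 CPM under placebo (limma adjusted p 0.147, past the threshold in DESeq2 alone).

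Of the genes for fatty acid uptake and triglyceride synthesis, 13 of 14 were tested. Gpd1, Slc2a4, Acsl1 and Lpl had the highest means, and the ranges were 753 to 1944 CPM for Gpd1, which makes glycerol 3-phosphate, and 159 to 687 CPM for Lpl, the lipase that frees fatty acids from plasma lipoproteins. Under acupuncture 10 of 13 were lower at 1 hour, with a median log2 change of -0.20, and 9 of 13 higher at 34 days, with a median of 0.63. Both rest on single libraries: without AP_1h replicate 2 the first was 6 of 13 lower, and without AP_34d replicate 1 the second was 4 of 13 higher with a median of -0.25. The list summed to 4904 CPM in AP_34d replicate 1 and to 2467 CPM in replicate 2, against 2740 and 4008 CPM in PLA_34d. Of the lipogenesis list 8 of 14 were tested, and the median changes were 0.11 and -0.19. Scd1, the stearoyl-CoA desaturase, ranged from 1.91 CPM in RA_0 replicate 1 to 466 CPM in PLA_1h replicate 1, with 241 CPM in PLA_34d replicate 1. Thrsp, a regulator of lipogenesis, stood at 388 CPM in AP_1h replicate 1 and at 4.06 to 44.2 CPM elsewhere. Me1 ran from 264 to 753 CPM.

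Of the adipocyte transcription factors, 9 of 11 were tested. Klf15 and Cebpb had the highest means, 95.1 and 92.7 CPM, and both are made in many tissues. Cebpa, the factor of differentiated adipocytes, had no read in RA_0 replicate 1 and was highest, at 4.04 CPM, in PLA_34d replicate 1. Pparg, the master regulator of fat cells, reached at most 0.594 CPM, but its 3 transcripts overlap each other and lose the reads they share, so that its level is not known. Among the receptors, 9 of 12 were tested: Adipor1 ran from 201 to 409 CPM and Adipor2 from 88.7 to 243 CPM (receptors of adiponectin), and Lepr, the leptin receptor, from 0.649 to 3.37 CPM. Their median changes under acupuncture were 0.20 at 1 hour and 0.08 at 34 days.

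Of 20 other adipocyte products and surface proteins, 12 were tested, and 9 of these were lower under acupuncture on average over both times, with a median log2 change of -0.31 beside -0.01 over all transcripts (-0.16 without AP_1h replicate 1 and -0.47 without AP_34d replicate 1). Car3, carbonic anhydrase 3 of muscle and fat, ran from 1774 to 6480 CPM. Adrb3, the adrenergic receptor of adipocytes, reached at most 0.891 CPM. Of the brown and beige fat list 4 of 12 were tested. Ucp1, the protein that defines brown fat, had no read in any library, and Dio2 had reads in 1 library only (0.297 CPM). The tested members of that list, among them Cox8b, Cpt1b and Pdk4, are also made in muscle. Of the adipocyte precursor list 9 of 11 were tested, with Pdgfrb at 29.8 to 75.3 CPM and Pi16 at 5.88 to 57.0 CPM. At 1 hour Pi16 stood at 15.5 and 5.88 CPM under acupuncture against 38.1 and 27.7 CPM under placebo (limma adjusted p 0.749).

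Markers of other cell types were set beside the adipocyte genes as sums over each list. The 10 skeletal muscle genes summed to 132138 to 360787 CPM, and r with Adipoq was -0.405 over the 10 libraries (permutation adjusted p 0.337), while in deviations from the group means it was -0.768. The leukocyte list summed to 36.4 to 160 CPM in 9 libraries and to 375 CPM in PLA_34d replicate 1 (r = 0.420, permutation adjusted p 0.337, and -0.124 without that library, 0.588 in deviations from the group means), with Ptprc at 0 reads, a gene whose overlapping transcripts lose reads. The fibroblast list summed to 996 to 3487 CPM (r = -0.0412, permutation adjusted p 0.907), and in deviations from the group means r was 0.827. The keratinocyte list stayed between 2.34 and 7.11 CPM with Krt14 at no more than 0.649 CPM (r = -0.373, permutation adjusted p 0.353, and -0.620 in deviations). Each r in deviations rests on 1 difference between replicates per group, and those of Adipoq were largest in RA_0 and PLA_34d. The endothelial list summed to 154 to 272 CPM, and its r with Fabp4 was 0.412 (permutation adjusted p 0.337, a relation chosen after the values were seen). Between treatments, the summed muscle genes were 146613 and 244740 CPM in AP_1h against 168997 and 350230 CPM in PLA_1h, and 303080 and 212309 CPM in AP_34d against 132138 and 280882 CPM in PLA_34d, overlapping at both times. The fibroblast sums were 3388 and 2026 CPM in AP_1h against 1482 and 1677 CPM in PLA_1h, without overlap, and 2971 and 1246 CPM in AP_34d against 1887 and 996 CPM in PLA_34d. The leukocyte sums were 160 and 49.3 CPM in AP_1h against 58.7 and 43.2 CPM in PLA_1h. The part of tissue composition in the adipocyte values was not tested. Of the list for the mammary gland, which lies in the same layer of female rats, the milk protein genes Csn2, Csn1s1, Wap and Lalba were at 0 to 1 read in each library, and Epcam and Prlr reached at most 0.560 and 0.224 CPM. The epithelial keratins of that list were low but varied: Krt18 stood at 0.239 and 0.297 CPM in RA_0, at 0.649 and 0.560 CPM in AP_1h, at 4.36 and 2.63 CPM in PLA_1h, at 4.49 and 2.69 CPM in AP_34d and at 2.47 and 1.71 CPM in PLA_34d. Its values were thus lower in AP_1h than in PLA_1h without overlap (log2 change -1.46, limma adjusted p 0.679), and higher in PLA_1h, AP_34d and PLA_34d than in RA_0. Krt18 passed the filter on low values only through the groups where it was high, so these values are a description and support no direction. Krt8, its partner in the filament, ran from 0.239 to 2.28 CPM. The part of epithelial tissue in the adipocyte values was not tested.

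**Figure D5:**
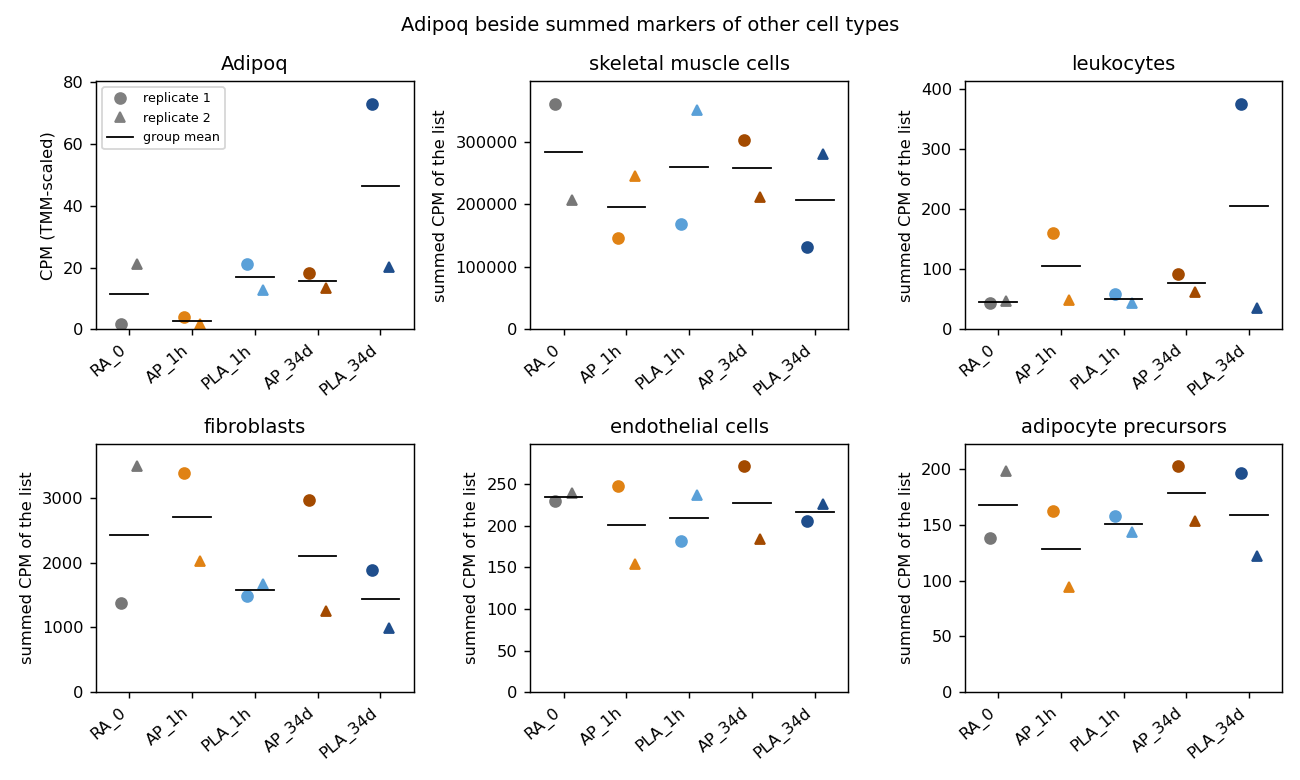
CPM of Adipoq and summed CPM of 5 marker lists in each library (linear axes from 0), with circles for replicate 1, triangles for replicate 2 and a bar for the group mean. PLA_34d replicate 1 has the highest Adipoq (73.0 CPM), the highest leukocyte sum (375 CPM) and the lowest muscle sum (132138 CPM), and the other lists do not order the libraries as Adipoq does.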

How the data were processed

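RNA was extracted with Trizol, made into TruSeq RNA v2 libraries and read on a HiSeq sequencer. The authors, per the labels and their methods, used CASAVA 1.8.2, cutadapt 1.2.1, bowtie2 2.1.0 on rn4, HTSeq 0.5.4p3 in intersection-nonempty mode on the UCSC annotation, and edgeR 3.4.2. The deposited values are a signal per transcript and library: counts scaled to CPM with TMM factors, so columns differ in their sums. Whole reads could be recovered for 100% of values within a tolerance of 0.01 reads. Whether counting used strand is not given in the sources used here. None of the 10 member transcripts overlaps a gene of another symbol. Coordinates are rn4, counted from 1, except for promoters. No transcript lengths were used, so levels were not compared between genes.

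log2(CPM + 1) was fitted with limma 3.58.1 (R 4.3.3) with 1 mean per group over all 10 libraries, eBayes with a trend on the mean (residual df 5, prior df 5.14) and Benjamini-Hochberg adjustment over the 10259 transcripts (59.6% of 17221) that reached 1 CPM in both libraries of a group. An adjusted p under 0.05 was a call. Fold changes on this scale understate those of low transcripts. On the recovered reads, limma-voom (the study's choice), edgeR 4.0.16 and DESeq2 1.42.0 were run as alternatives. Other alternatives were the pseudocount, the filter, the scaling, the groups fitted, the mean trend, a replicate block, transcripts summed per symbol and each library left out in turn. Permutation tests used scipy 1.17.1 under Python 3.11.15, and figures matplotlib 3.10.9. The fit was tested on simulated counts before use.

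The 8 members, the lists and the tests were chosen with earlier results of these data known. All members are named with every value, and a log2 change where it is at least 1 in size or its unadjusted p is under 0.05. Of each other list up to 4 tested genes of the highest mean, genes at 0 and genes called are named, and the 10 transcripts with the highest r with Adipoq. Cebpa, Pparg, Lepr, Adrb3, Dio2, Alb, Cd3e, Lalba, Csn2, Krt14, Krt8, Krt18, Epcam, Prlr, Serpina1 and Slc34a1 were named after their values were seen. Promoters are from the RefSeq table of GRCr8, in which 7 of 8 members were found (Fabp4 was not). The values of 1 listed gene are not reported here.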

Additional observations from a re-analysis of the deposited data

How the results depend on the processing

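The count of members called was 0 in each of the 8 comparisons and under all 26 alternatives, and the smallest adjusted p of any member under any alternative was 0.0688. The 8 followed log2 changes of acupuncture against placebo kept their direction. They were picked for their size or unadjusted p in the main fit of the same libraries, so a kept direction supports none. Some are those of Lep, tested through its placebo values, and some are averages of the comparisons at the single times. With TMM factors left out, the median of all transcripts moved to as much as 0.23 (PLA_34d against RA_0) and -0.27 (interaction). Changes against RA_0 turned with single libraries. Over the fits with 1 library left out, the log2 change of Adipoq ran from -2.57 to 0.48 in AP_1h, from -0.35 to 2.70 in PLA_1h and from -0.42 to 2.63 in AP_34d, and in PLA_34d that of Cfd ran from -0.018 to 2.102 and that of Pck1 from -0.44 to 2.87. With both RA_0 replicate 1 and PLA_34d replicate 1 left out, which was chosen after seeing the data, Adipoq stood at -0.35 in PLA_1h, -0.42 in AP_34d and -0.070 in PLA_34d against RA_0, and in the last comparison Cfd stood at -0.51, Lep at -0.11, Plin1 at -0.41 and Pck1 at -0.29.

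Per the study, tissue was excised when the animals were sacrificed, so libraries of different groups came from different animals. The deviations of same-numbered libraries correlated between groups with r from -0.464 to 0.446. These r cannot tell whether same-numbered libraries shared a batch of processing. A fit with the replicate block called 0 members in each comparison.

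Pearson's r of Adipoq with Lep and Plin1 stayed past the threshold under all 15 alternatives. With Pck1 it fell to 0.697 under quantile normalization, short of the threshold, and ran from 0.680 to 0.837 with 1 library left out. With 1 library left out it ran from 0.378 to 0.795 for Retn, from 0.707 to 0.931 for Cfd, from -0.223 to 0.207 for Fabp4, from -0.124 to 0.626 for leukocytes and from -0.211 to 0.134 for fibroblasts. Pck1 (0.680 and 0.761) and Cfd (0.707 and 0.715) were short of the threshold without RA_0 replicate 1 and without AP_1h replicate 2, as was Cfd without PLA_34d replicate 1 (0.729), and Retn passed it without AP_1h replicate 1 (0.795). Without TMM factors it was 0.258 for Fabp4 and 0.206 for fibroblasts, and under quantile normalization 0.126, 0.0960 and, for skeletal muscle, 0.436. The cause of these shifts was not tested. Depth limits Lep, Retn and Cidec, which rest on 151, 86 and 3 reads.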
